A study of Mus musculus with 4 samples.

Results

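Fetal-only distal regions are stretches of mouse chromatin away from promoters that were open in both fetal epithelial groups and at least 3 times less open in each of the 3 adult ones. There were 657 of them among the 145453 distal regions the authors deposited, or 0.452%, each 1000 bases wide. They were chosen from the measured reads themselves. Reads of the listed nuclei were summed by the authors' deposited classes into 5 groups and expressed as CPM, reads per 1000000 distal reads of the group. A region was taken when the smaller of the 2 fetal levels was at least 10 CPM and at least 3 times each adult level, with 0.5 CPM added for the ratio. That minimum level was reached by 18781 distal regions (12.9%), of which 18124 missed the fold and serve below as the comparison set. The mirrored rule, with both fetal groups low and all adult groups high, gave 175 regions.

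The study profiled mammary epithelial cells of wild-type CD1 mice, sorted as EpCAM-positive and lineage-negative, by single-nucleus ATAC-seq, an assay whose transposase inserts into open DNA so that each read marks an accessible site in 1 nucleus. The fetal libraries came from embryonic day 18 and the adult libraries from mice of 8 weeks, with 2 biological replicates at each stage. How many animals were pooled in a library was not given in the sources used here, and any way in which collecting fetal and adult tissue differed cannot be told apart from stage. The fetal luminal-like group held classes 5 and 9 (1594 nuclei, 5492647 distal reads) and the fetal basal-like group classes 4 and 12 (815 nuclei, 2809530 distal reads). The adult basal-like group held classes 1 and 8 (1060 nuclei), the adult luminal progenitor-like group classes 3 and 7 (1735 nuclei), and the adult mature luminal-like group classes 2 and 11 (2086 nuclei). The groups follow class and not library, so the adult groups include a few nuclei of fetal libraries (3 in class 2, 8 in class 3, 1 in class 7, 10 in class 8 and 7 in class 11) and the fetal groups a few of adult libraries (6 in class 4 and 19 in class 9). The classes carry numbers without names in the deposit, and the names used here rest on markers. Summed over Krt5, Krt14, Trp63, Acta2 and Myh11, basal marker genes had 1494 and 1364 CPM in adult basal-like nuclei of the 2 adult replicates, against 300.2 and 317.9 in luminal progenitor-like and 135.1 and 162.7 in mature luminal-like ones. In the fetus these genes separated the groups less, at 657.3 and 819.2 CPM in basal-like and 484.1 and 422.4 CPM in luminal-like nuclei. Trp63, Krt5 and Acta2 were higher in fetal basal-like nuclei in both replicates. In replicate 1, Krt14 was alike (108.3 against 105.6 CPM) and Myh11 lower (60.16 against 77.46 CPM), while both were higher in replicate 2. Luminal progenitor markers (Kit, Elf5, Aldh1a3, Cd14 and Csn3) had 757.2 and 801.7 CPM in adult progenitor-like, 617.2 and 623.6 CPM in fetal luminal-like and 397.1 and 361.4 CPM in fetal basal-like nuclei. Mature luminal markers (Esr1, Pgr, Prlr, Foxa1 and Cited1) had 1910 and 2001 CPM in adult mature luminal-like nuclei and 540.6 to 814.3 CPM in the other 4 groups. Each library gave between 6028168 and 19304830 reads in listed nuclei, with median depths of 4420 to 7488 reads per nucleus, and no barcode was shared between libraries. A fetal-only region had a median of 89 reads in the fetal luminal-like group.

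Distal open regions include enhancers, stretches of DNA where transcription factors bind and from which a gene can be regulated over long distances. In the late fetus the mammary epithelium is a small branched rudiment that grew from a bud of the skin, and the adult tree of basal and luminal cells is formed from it after birth. Fetal mammary cells are known for expressing SOX factors such as Sox10 and Sox11 and for combining features that are separate in adult lineages.

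Some fetal-only regions held an annotated gene start, and the 250 bases before it are shown for 3 of them. The first is in the region of third-highest ratio of the smaller fetal to the largest adult level, the second in the region of third-highest level, and the third is a further region that held the whole stretch. Shown with them are the stretches before the starts of Sox11 and Igf2bp3, whose promoters are nearest to fetal-only regions and had the first and the third largest rise among the named promoters described further on. Sequences are from RefSeq, build GRCm38.p6, 5′ to 3′ on the strand of the gene, and capitals mark the words searched on both strands.
Tmprss5 (chr9:49102478-49102727, plus strand): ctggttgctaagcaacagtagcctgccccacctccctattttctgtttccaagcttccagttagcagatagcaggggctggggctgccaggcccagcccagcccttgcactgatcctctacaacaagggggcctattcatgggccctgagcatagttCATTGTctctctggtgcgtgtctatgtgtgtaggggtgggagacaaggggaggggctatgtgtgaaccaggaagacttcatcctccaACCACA
Gm32633 (chr7:63986585-63986834, plus strand): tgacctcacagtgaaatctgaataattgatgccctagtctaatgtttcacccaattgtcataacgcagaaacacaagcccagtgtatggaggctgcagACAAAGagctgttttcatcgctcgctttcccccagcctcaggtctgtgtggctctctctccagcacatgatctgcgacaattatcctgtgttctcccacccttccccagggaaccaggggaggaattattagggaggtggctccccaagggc
Gm36227 (chr9:41919199-41919448, minus strand): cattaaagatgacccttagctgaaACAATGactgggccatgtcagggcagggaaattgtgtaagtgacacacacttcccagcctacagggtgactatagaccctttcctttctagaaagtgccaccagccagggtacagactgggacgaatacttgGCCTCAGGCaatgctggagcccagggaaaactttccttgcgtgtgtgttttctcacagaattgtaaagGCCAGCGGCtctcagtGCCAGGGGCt
Sox11 (chr12:27342719-27342968, minus strand): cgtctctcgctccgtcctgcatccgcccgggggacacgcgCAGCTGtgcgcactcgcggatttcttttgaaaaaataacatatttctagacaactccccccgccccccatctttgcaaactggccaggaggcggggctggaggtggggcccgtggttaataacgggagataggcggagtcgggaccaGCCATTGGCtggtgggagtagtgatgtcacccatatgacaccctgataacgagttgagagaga
Igf2bp3 (chr6:49214955-49215204, minus strand): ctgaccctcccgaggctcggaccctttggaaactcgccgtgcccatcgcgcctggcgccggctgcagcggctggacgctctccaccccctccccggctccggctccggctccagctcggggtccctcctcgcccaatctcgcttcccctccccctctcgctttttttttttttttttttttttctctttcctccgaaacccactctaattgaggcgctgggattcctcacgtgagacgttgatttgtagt
A SOX word, ACAAAG or ACAATG, stood once in each of the 3 stretches inside fetal-only regions, and 25.2% of all 32851 RefSeq stretches of this length held one. These 3 were picked after their values were seen, and over all 10 fetal-only regions that such a stretch overlapped, 4 had a SOX word in it. With so few, nothing is read from that share. The printed Tmprss5 stretch also held a RUNX word (TGTGGT, in 4614 of the 32851). The Gm36227 stretch held 3 AP-2 words (GCCNNNGGC, 13.7%), and the Sox11 stretch held 1 AP-2 word and 1 E-box (CAGCTG, in 4271). None of the words searched stood in the Igf2bp3 stretch. A second annotated start of Tmprss5 lies in the same region, and the 250 bases before it (chr9:49102529-49102778) held the SOX and the RUNX word and also 1 AP-1 word (TGANTCA, 6.75% of all). Counted in short bins that reach slightly past each stretch, they took 69.5% of the fetal read midpoints of the region, against 63.1% for the overlapping stretch printed. The other words, with no match in the 5 printed stretches, were the full NFI word (0.0365%) and a short one (TTGGCA, 12.3%), TEAD (GGAATG, 12.6%), the word of GATA factors, spelled AGATAA (9.99%), FOXA (TGTTTAC, 3.17%), TCF/LEF (CTTTGA, 13.8%), ETS (CCGGAA, in 3952), GRHL (AACCNGTT, 1.79%), homeobox (TAATTA, 4.84%) and the CTCF word (1.17%). A match describes these letters and does not show that a factor binds there.

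Across all 657 regions, the median level was 16.2 CPM in fetal luminal-like and 19.58 CPM in fetal basal-like nuclei. It was 2.157 CPM in adult basal-like, 2.218 CPM in luminal progenitor-like and 0.6817 CPM in mature luminal-like nuclei. These levels were used to choose the regions and are given without a test. Among the fetal-only regions, 125 (19.03%) had no read in mature luminal-like nuclei, 76 (11.6%) none in basal-like and 41 (6.24%) none in luminal progenitor-like nuclei. The order was the same in the comparison set, at 2.61%, 0.425% and 0.199%. The mature luminal-like group was the highest adult group in 66 of the 657 (10.0%), against 313 for the basal-like and 278 for the progenitor-like group. Every fetal group and library lay above every adult one in 634 regions (96.5%), where 6.03% of all distal regions and 15.7% of those at the minimum level did. The rule used this contrast, so nothing is read from that count. Taken class by class, 431 of the 657 (65.6%) reached 10 CPM in each of classes 4, 5, 9 and 12. Just inside the fold, the region nearest to Smoc2 had a ratio of 3.0067 and that nearest to Ankrd1 3.0093. Just outside lay regions nearest to Nrarp (2.9998) and Zfp462 (2.9987).

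**Figure D1:**
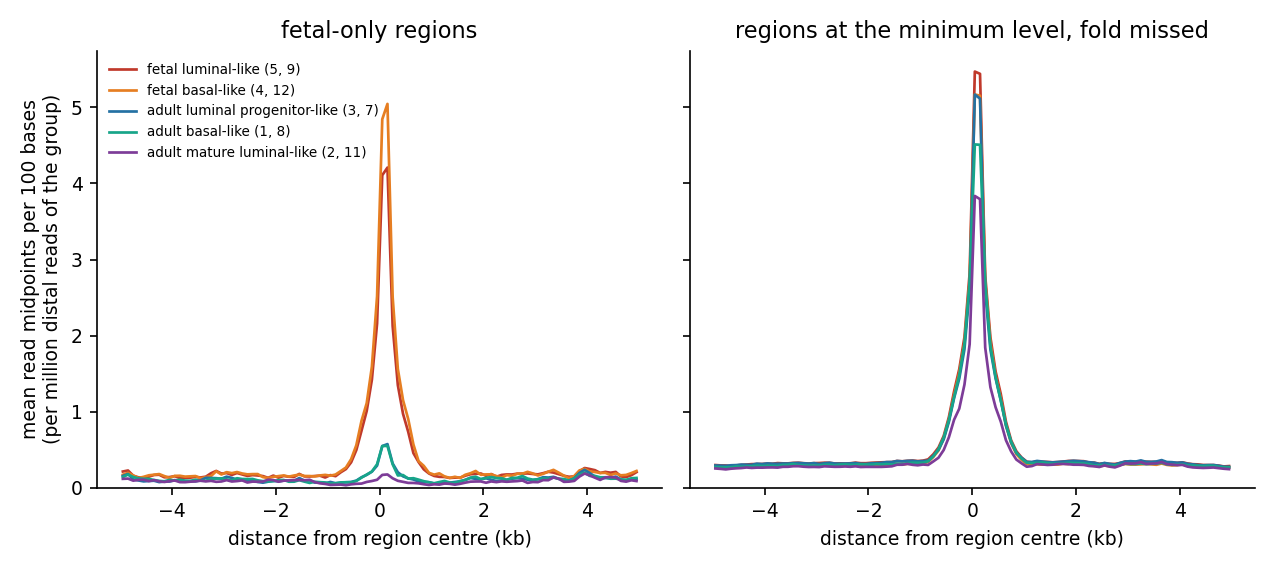
Mean read midpoints per 100 bases (vertical axis, in CPM of each group) against the distance from the region centre in kb, for the fetal-only regions (left) and the regions that reached the minimum level but missed the fold (right), 1 line per group of deposited classes. The fetal lines form a narrow peak over the fetal-only regions while the adult lines stay low, and all 5 groups peak over the comparison set.

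The central 1000 bases hold the reads that the rule used, so their levels are a description. There the fetal-only regions had 18.6 CPM in fetal luminal-like and 21.8 CPM in fetal basal-like nuclei, 10.7 and 12.4 times the level per 1000 bases in the flanks 2 to 5 kb away. In adult nuclei the centre was at 2.22 times (basal-like), 2.35 times (progenitor-like) and 1.06 times (mature luminal-like) the level of the flank. The flank itself was 1.75 CPM in both fetal groups and between 0.97 and 1.2 CPM in the adult ones. Over the regions that missed the fold the ratio of centre to flank lay between 6.3 and 8.42 in all 5 groups. Its flanks were at 2.81 to 3.21 CPM, over those of the fetal-only regions in every group, and the rule did not use the flanks.

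Single nuclei held few of these reads. A fetal-only region had a read in a median of 2.85% of the 2384 fetal nuclei of classes 4, 5, 9 and 12 in the fetal libraries, with a range from 1.59% to 16.9%. In the 4852 nuclei of adult libraries in the 6 adult classes of the rule the median was 0.206%, with a range from 0% to 1.85%. A fetal nucleus of class 12 had reads in a median of 21 fetal-only regions in replicate 1 and 24 in replicate 2. For class 9 the medians were 12 and 18. A median adult nucleus had reads in 0 to 3 of them, depending on its class. Among class 2 nuclei, 51.8% in adult replicate 1 and 44.5% in adult replicate 2 had no such read at all. In class 12 no nucleus lacked one in either fetal replicate.

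The regions of highest level lay in or near genes of quite different kinds. The highest (chr10:96397370-96398369, intergenic, 219 kb from Btg1, an antiproliferative gene) had 115.6 and 114.2 CPM in fetal luminal-like and 127.8 and 98.3 CPM in fetal basal-like nuclei of replicates 1 and 2. Its adult levels were 23.0 and 36.51 CPM in basal-like, 21.55 and 27.31 in progenitor-like, and 1.622 and 4.733 in mature luminal-like nuclei. All 4 fetal values were thus over all 6 adult ones, and among the adults the mature luminal-like nuclei were lowest. The region that holds the start of Gm32633, a long noncoding RNA gene (chr7:63986270-63987269, 47.9 kb from the protein-coding Klf13), had 74.0 to 95.96 CPM over the 4 fetal values and 2.662 to 16.58 CPM over the 6 adult ones. Of its fetal read midpoints, 50.9% fell in the bins that cover the printed 250 bases and reach slightly past them. A region 3.73 kb from Prss21, a serine protease gene (chr17:23876351-23877350), reached 93.15 and 97.76 CPM in fetal basal-like nuclei and had no read in mature luminal-like nuclei of either adult replicate. It was linked by the authors' deposited co-accessibility score of 0.573 to the promoter of Cldn9, a tight junction claudin.

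**Figure D2:**
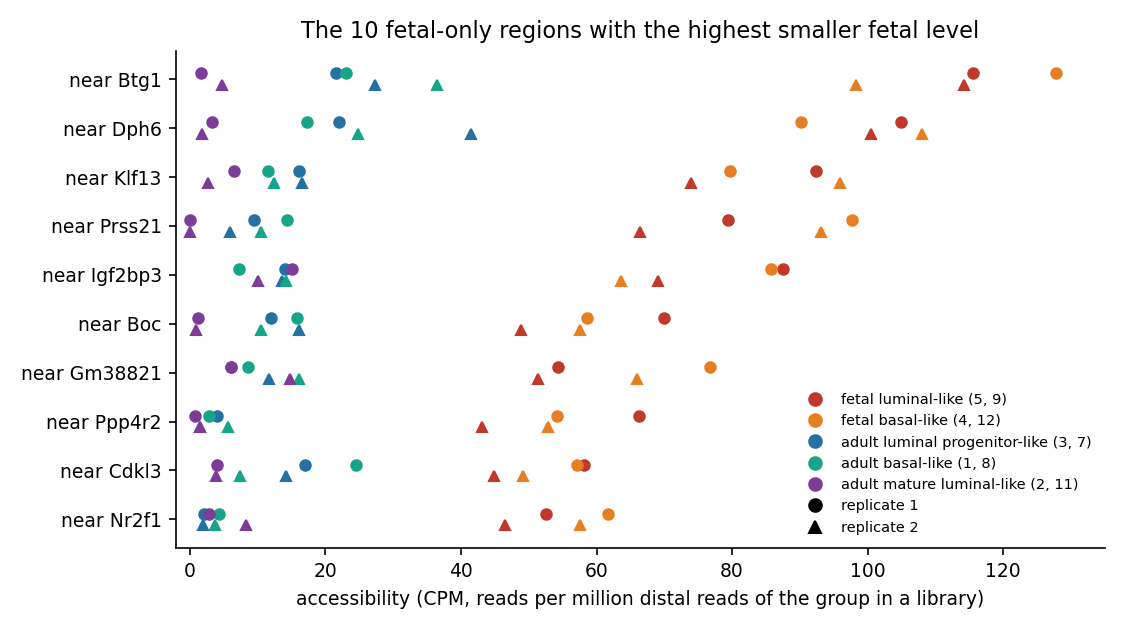
Accessibility in CPM (horizontal axis) of the 10 fetal-only regions with the highest smaller fetal level, each named by its nearest protein-coding gene, with 1 point per group and library (circles replicate 1, triangles replicate 2). Fetal points lie between 43.1 and 127.8 CPM and to the right of every adult point of the same region.

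Of the 657 regions, 4 had no read in any of the 3 adult groups. The region 109 kb from Zfp608, a zinc finger gene (chr18:55101487-55102486), had 24.36 and 30.12 CPM in fetal luminal-like and 24.06 and 33.7 CPM in fetal basal-like nuclei. Counted against 3 reads in the shallowest adult group, it was at least 21.9-fold higher in the fetus. A region inside Med27, which encodes a Mediator subunit (chr2:29506019-29507018), was at least 21.2-fold higher, with 27.07 to 30.61 CPM over the 4 fetal values. The other two lay 699 kb from Igfbp7 (at least 10.2-fold) and inside Ccdc93 (at least 9.6-fold). The floor is 3 reads pooled over the group's libraries and covers counting error only. The region that holds the starts of Tmprss5, a transmembrane serine protease gene (chr9:49102072-49103071), had 46.23 and 40.24 CPM in fetal luminal-like and 66.18 and 49.15 CPM in fetal basal-like nuclei. Its adult levels were at most 1.238 CPM. Of its fetal read midpoints, 63.1% fell in the bins that cover the 250 bases printed for Tmprss5 and reach slightly past them. The low adult levels of these 5 regions are what they were picked for.

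Fetal-only regions lay far from promoters. Their median distance to the nearest deposited promoter region was 73.35 kb, against 37.27 kb for the regions that missed the fold, 42.17 kb for all distal regions and 31.79 kb for the adult-only regions. More than 100 kb separated 284 of them (43.2%) from any promoter region, compared with 23.4% of those that missed the fold. Only 63 (9.59%) lay within 10 kb, against 19.4%. By RefSeq, 308 (46.9%) lay inside the body of a protein-coding gene, against 53.4% of all distal regions, and 134 (20.4%) lay over 100 kb from any gene body, against 11.4%. Chromosome X held 4 (0.609%), against 1.96% of all distal regions. Outside chromosome 18, 10 of 631 (1.58%) overlapped the 250 bases before a RefSeq start, against 8.03% of those that missed the fold and 2.43% of all distal regions. Of the genes with these starts, Tmprss5 and Tsc22d1 are protein coding. These are descriptions of position with no test.

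A few loci held several regions. Another fetal-only region stood within 100 kb for 103 of the 657 (15.7%), a share that depends on how many regions a set holds. The largest group was 4 regions inside and around Sema6a, a semaphorin gene, over 112 kb of chromosome 18. Igf2bp3, which encodes an oncofetal RNA-binding protein, had 3 regions within 12.3 kb (chr6:49206100-49218351), 2 in the gene body and 1 at 2.38 kb from it. The one outside the gene was also one of the 5 highest of all fetal-only regions, at 87.45 and 69.06 CPM in fetal luminal-like, 85.73 and 63.66 CPM in fetal basal-like, and 7.188 to 15.01 CPM over the 6 adult values. Its level in adult mature luminal-like nuclei (15.01 and 10.06 CPM) overlapped that in the other adult groups. The 2 inside the gene had 13.54 to 38.85 CPM over their fetal values and 0 to 3.713 CPM over their adult ones. Bcl11a, a zinc finger gene, Sema3d, Ankrd1 and Tmem38b had 3 regions each.

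By nearest protein-coding gene, lists of developmental genes took few of the regions. SOX factor genes were nearest to 5 (0.761%, against 0.292% of all distal regions), nuclear factor I genes to 5 (0.761% against 0.191%), oncofetal genes to 4 (0.609% against 0.107%), embryonic mammary bud genes to 5 (0.761% against 0.418%) and genes of BMP, TGF-beta and hedgehog signalling to 5 (0.761% against 0.373%). Wnt pathway genes were nearest to 2 (Lgr5 and Tcf7l1, 0.304% against 0.365%). No region was nearest to a gene of the adult basal, mature luminal or stromal lists, and 1 was nearest to a luminal progenitor gene, Aldh1a3. All distal regions had 0.0825%, 0.0935% and 0.0612% nearest to the first 3 lists and 0.0914% nearest to the progenitor list, and counts of 0 and 1 among 657 are near that background. With such counts these shares are descriptions, and the lists were drawn up with earlier results of these data known.

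Among the bud genes, Fgfr2, the receptor of mesenchymal FGF signals that bud growth needs, had 3 regions. The one 179 kb from the gene (chr7:129983413-129984412) had 38.73 and 43.62 CPM in fetal luminal-like, 28.58 and 31.36 CPM in fetal basal-like and 2.875 to 8.578 CPM over the adult values. The 2 inside the gene body had 9.995 to 27.07 CPM in the fetus and 0 to 4.056 CPM in the adult. Edar, the ectodysplasin receptor (chr10:58640675-58641674, in the gene), and Ptch1, the hedgehog receptor (chr13:63691610-63692609, 119 kb away), had 1 each, both with all fetal values over all adult values. At Edar the fetal basal-like level (18.05 and 26.68 CPM) lay over the luminal-like one (14.99 and 12.2 CPM).

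Among the SOX genes, Sox11, a SoxC factor of embryonic progenitors, had 1 region inside the gene body (chr12:27338975-27339974). It had 18.74 and 16.36 CPM in fetal luminal-like nuclei, above 9.024 and 11.23 CPM in basal-like nuclei and at most 4.389 CPM in adult ones. Sox5 had 1 region, 137 kb away. Sox6 had 3 regions, of which one (chr7:115370759-115371758) read 40.61 CPM in basal-like nuclei of fetal replicate 1 and 13.58 CPM in those of replicate 2, so that its lean to either lineage is not larger than the spread between replicates. Dlk1, an imprinted gene of the Notch ligand family, had 1 region 50 kb away (chr12:109512809-109513808) with 37.6 to 51.96 CPM in the fetus. Its adult progenitor-like level differed between replicates (18.54 and 7.314 CPM). Nfia had 3 regions and Nfib 2, with the highest of these (30.97 CPM in fetal basal-like and 36.96 CPM in luminal-like nuclei) 17.4 kb from Nfib.

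Within the fetal nuclei the regions were not equally open. Classes 5 and 12 had more of their distal reads in fetal-only regions than classes 9 and 4 did. The share was 1.83 ± 0.0141% (SD, n = 2 libraries) in class 12 and 1.73 ± 0.0424% in class 5, against 1.31 ± 0.0212% in class 4 and 1.10 ± 0.0636% in class 9. The rule pooled class 5 with 9 and class 12 with 4, so a region could pass through 1 class of a pair alone, and the classes were drawn from the same reads. The class values are therefore a description. Per region, the median log2 ratio of class 5 to class 9 was 0.59 in fetal replicate 1 and 0.62 in replicate 2, against -0.04 and 0.01 over the regions that missed the fold. Class 5 was higher in both replicates in 404 regions (61.5%), where 33.0% of all regions at the minimum level were, and over 2-fold higher over the pooled reads of both fetal libraries in 180 (27.4%, against 6.41%). For class 12 against class 4 the medians were 0.49 and 0.48, against 0.09 and 0.09, and 291 regions (44.3%) were higher in both replicates, where 32.4% of all regions at the minimum level were. Over the pooled reads, class 12 was over 2-fold higher in 139 (21.2%, against 9.40%). In the same pooled reads, 423 of the 657 (64.4%) were higher both in class 5 than in 9 and in class 12 than in 4, where 37.5% of all regions at the minimum level were.

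Single high regions differed in how they followed this. At the region nearest to Dph6 (chr2:114700809-114701808), class 5 had 169.4 CPM and class 9 74.4 CPM, while classes 12 and 4 had 107.5 and 101.0 CPM. At the region of Gm32633, classes 5 and 12 had 121.4 and 123.6 CPM and classes 9 and 4 had 63.26 and 71.45 CPM. The region inside Sox11 went the other way, with 9.735 CPM in class 5 and 19.74 CPM in class 9. Classes 5 and 12 were also those with low deposited scores for the AP-1 factor Fos, a chromVAR deviation that tells how open the regions with a factor's motif are in a nucleus. Its median was -5.25 and -6.14 in class 5 and -3.36 and -4.26 in class 12 of fetal replicates 1 and 2, against -0.847 and -0.675 in class 9 and 0.176 and -0.0454 in class 4. The Sox9 scores were 1.57 and 1.82 in class 5, 1.83 and 1.77 in class 12, 0.81 and 1.0 in class 9, and 1.14 and 1.06 in class 4. The Nfix scores were 2.08 and 2.76 in class 5, 1.22 and 1.74 in class 9, 0.873 and 1.59 in class 12, and 0.24 and 0.547 in class 4, higher in 5 than in 9 and in 12 than in 4 but with class 12 under class 9. The Nfic scores were 1.02 and 1.85 in class 5 and 1.07 and 1.45 in class 12, over 0.725 and 0.991 in class 9 and 0.372 and 0.469 in class 4 of the same replicates. Nuclei of class 5 had fewer reads than those of class 9, with medians of 4566 and 6707 against 5807 and 8382. Class 12 had medians of 5818 and 7110 against 6224.5 and 7081.5 in class 4, lower in replicate 1 only. The part of depth in either difference was not tested.

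**Figure D3:**
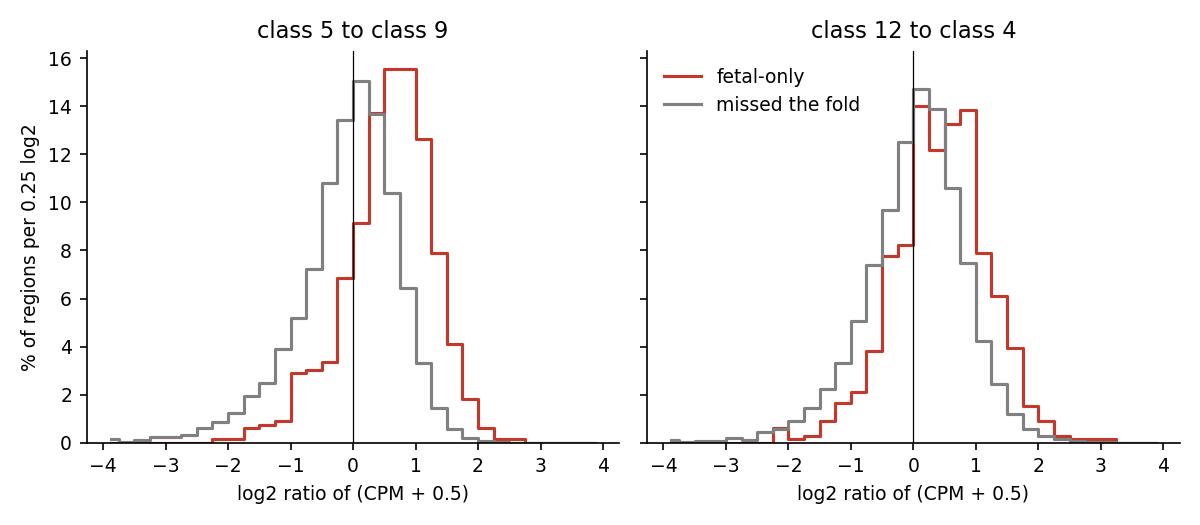
Share of regions (vertical axis, % per 0.25 log2) by the log2 ratio of levels between 2 fetal classes (horizontal axis, 0.5 CPM added), class 5 to class 9 on the left and class 12 to class 4 on the right, over the pooled reads of both fetal libraries. The fetal-only regions (red) are shifted to the right of the regions that missed the fold (grey) in both panels.

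Between fetal basal-like and fetal luminal-like nuclei the median log2 ratio was 0.26 and 0.16 in the 2 replicates, against -0.05 and -0.06 in the comparison set. Basal-like nuclei were higher in both replicates in 270 regions (41.1%, where 28.7% of the regions at the minimum level were), and lower in both in 91 (13.8%, against 34.7% of the comparison set). A difference over 2-fold in the pooled reads was found in 24 on the basal-like side (3.65%, against 3.98%) and in 3 on the luminal-like side (0.457%, against 4.17% of the comparison set). The rule asked for a level in both groups, which limits such differences.

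Classes outside the rule held fewer of these reads. Class 6, stromal-like, whose stromal markers (Col1a1, Col1a2, Col3a1, Pdgfra and Twist1) summed to 1652 and 1505 CPM in fetal and 1275 and 1214 CPM in adult replicates, was the only such class with at least 20 nuclei in each library. Its nuclei had 0.249% and 0.407% of their distal reads in fetal-only regions in fetal replicates 1 and 2, against 0.107% and 0.126% in adult replicates 1 and 2, a ratio of 2.82 between the stage means. Both fetal values were over both adult values, and both were under those of the 4 fetal epithelial classes of the rule. An exact permutation test of 2 against 2 libraries could not give a two-sided p below 0.333, so none is reported. Epithelial markers (Epcam, Krt8, Krt18 and Cdh1) summed to 45.26 and 172.6 CPM in fetal and 56.36 and 206.7 CPM in adult class 6 nuclei, against 1208 and 1241 CPM in fetal luminal-like nuclei. Krt18 was at 0 in fetal replicate 1 and in both adult replicates, Epcam and Krt8 in fetal replicate 1 and Cdh1 in adult replicate 1. At both stages replicate 2 had the higher epithelial marker level and the higher share. Other marker sums differed by stage in class 6. Adipocyte markers (Adipoq and Pparg) had 678.8 and 651.9 CPM in fetal and 239.5 and 346.2 CPM in adult replicates. Mature luminal markers had 1312 and 1237 against 634 and 924.9 CPM, and basal markers 407.3 and 402.6 against 232.5 and 284.2 CPM. Stromal markers were also higher in the fetus, and the other sets overlapped. Genes of a set did not all move together. Of the mature luminal genes, Esr1, Prlr and Foxa1 were higher in the fetus. Pgr (90.51 and 95.87 against 155 and 196.3 CPM) and Cited1 (0 and 19.17 against 28.18 and 31 CPM) were lower. Krt5 and Krt14 were at 0 in both fetal replicates, and Pparg made up most of the adipocyte sum. Class 6 of fetal replicate 1 had only 44193 distal reads, so its values rest on few reads. The part of the markers in the result was not tested. In edgeR's quasi-likelihood test over class 6, 0 of 4676 distal regions passed an adjusted p of 0.05 (0% called), with 394 under an unadjusted p of 0.05, and just 1 fetal-only region had enough reads to enter. The rest had too few reads there to be tested.

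Class 13, found nearly only in fetal libraries, had 0.448 ± 0.0375% (SD, n = 2) of distal reads in fetal-only regions, under all 4 fetal epithelial classes of the rule. Its epithelial markers summed to 1309 and 1439 CPM, most of it Cdh1 (917.3 and 883.2, against 569.1 and 567.3 in fetal luminal-like nuclei). Epcam (181.5 and 215 against 292.3 and 319.4) and Krt8 (105.1 and 243 against 244.2 and 256.3) were lower than in those nuclei. Krt18 was alike (105.1 and 98.13 against 102.4 and 98.14). Adult classes 10 and 14 had 0.130 ± 0.00354% and 0.149 ± 0.0148%. A few nuclei sat in classes of the other stage. The 19 adult nuclei of class 9 had 0.358 ± 0.0467%, the 10 fetal nuclei of class 8 had 0.837 ± 0.612% and the 7 fetal nuclei of class 11 had 0.214 ± 0.0728%, with few reads behind each. In the adult classes used by the rule, classes 3 and 8 had the highest shares, at 0.253 ± 0.000707% and 0.245 ± 0.0212%, and class 2 the lowest, at 0.0621 ± 0.00332%.

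**Figure D4:**
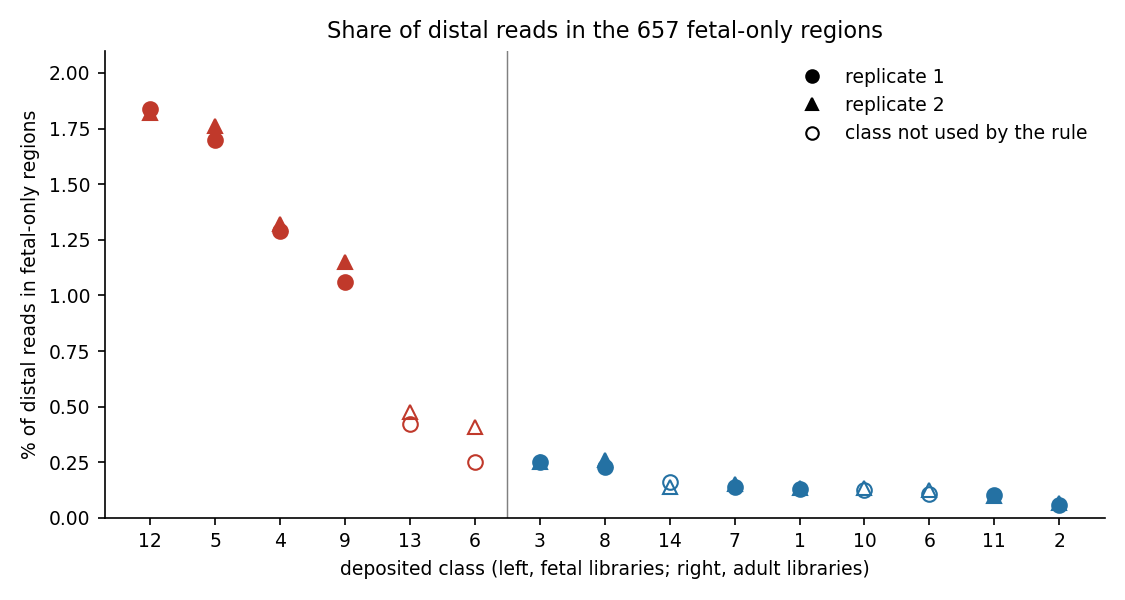
Percent of distal reads in the 657 fetal-only regions (vertical axis) by deposited class (horizontal axis), for fetal libraries on the left and adult libraries on the right, with 1 point per replicate and open points for classes the rule did not use. Classes with under 20 nuclei in a library are left out. The 4 fetal epithelial classes lie between 1.06% and 1.84% and all other points under 0.5%.

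Reads of barcodes that the authors did not list as nuclei were not used by the rule either. Of their distal reads, 1.34% and 1.28% fell in fetal-only regions in fetal replicates 1 and 2, compared with 0.168% and 0.268% in the adult replicates. In the adult-only regions the order was the reverse, with 0.101% and 0.1% in fetal replicates and 0.561% and 0.493% in adult ones. Both fetal libraries were above both adult libraries in 380 of the 657 regions (57.8%, where 9.42% of all distal regions and 26.6% of the comparison set were). Both were below in 16 (2.44%, against 26.4% and 18.2%). Over all 657 regions there were 1840 and 3117 such reads in the fetal and 1390 and 2214 in the adult replicates. The order at a single region thus rests on few reads. These reads share their libraries with those of the rule.

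The choice was also repeated without each library, and the regions chosen were read in the library left out. Such a library gives 1 side of the ratio only. The other side, adult for a fetal library and fetal for an adult one, comes from libraries that had chosen the regions, so part of the ratio is fixed by the rule and nothing is read from its distance to the background. Without fetal replicate 1, 714 regions were chosen, and against the adult libraries 601 of them (84.2%, where 6.15% of all regions at the minimum level were) had a smaller fetal level in replicate 1 of at least 2 times the largest adult level. Without fetal replicate 2, 501 of 568 did (88.2%, against 6.56%). With the adult level from the left-out library it was 525 of 658 (79.8%, against 8.70%) for replicate 1 and 588 of 797 (73.8%, against 8.18%) for replicate 2. The median of these ratios lay between 2.921 and 3.79. The lists themselves were less alike, since 367 of the 657 regions were chosen again without fetal replicate 2 and 573 without fetal replicate 1.

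Promoters were not part of the rule, though their reads come from the same nuclei and libraries that chose the regions. Of the 657 regions, 373 had a deposited promoter region within 100 kb, which gave 352 distinct nearest promoters, 344 of them with enough reads to test. The reads of all listed nuclei were summed per library for this test, so fewer nuclei of a class and lower accessibility per nucleus cannot be told apart. By edgeR's quasi-likelihood test, 104 of these 344 differed between fetal and adult libraries at an adjusted p under 0.05 (30.2%), where 21.5% of all 18570 tested promoters did. The excess was on the fetal side. Accessibility was higher in the fetus in 69 (20.1%, against 10.5% of all promoters) and lower in 35 (10.2%, against 11.0%). The median log2 fold change was 0.15, against 0 over all promoters. It was 0.07 in luminal nuclei alone, 0 in basal nuclei alone and 0.1 without fetal replicate 2. Luminal nuclei alone were fetal classes 5 and 9 against adult classes 3 and 7, so adult mature luminal-like nuclei were left out. Basal nuclei alone were fetal classes 4 and 12 against adult classes 1 and 8. In luminal nuclei alone 44 of 291 were higher (15.1%, against 6.40%), and in basal nuclei alone 12 of 260 (4.62%, against 1.33%). Either way, 55 of the 291 were called in luminal nuclei alone, 11 of them lower. Over all promoters it was 2021 of 15567 there, with 1024 lower. For basal nuclei alone, 18 of the 260 were called, 6 of them lower, beside 394 of 13140 over all promoters, with 219 lower. Without fetal replicate 2, 44 of 334 were higher in place of 69, while over all promoters it was 1172 of 18224 in place of 1954 of 18570. The 35 lower became 23 without adult replicate 1 (1447 over all promoters, in place of 2038), 18 without adult replicate 2 (1324 over all) and 22 with DESeq2 (1293 over all).

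Sox11 had the largest rise among the named promoters (chr12:27341816-27342815), with 101 and 99.6 CPM in the fetal and 15.4 and 16.2 CPM in the adult libraries. Its log2 fold change was 2.65 with an SE of 0.20 and an adjusted p of 1.82e-16 by edgeR. Its fetal values were thus far over both adult values. The log2 fold change of this promoter was smaller within a lineage, at 1.82 in luminal and 2.32 in basal nuclei alone, and it was called in both. The fetal-only region inside the gene was at 10.68 CPM in fetal basal-like and 16.93 CPM in fetal luminal-like nuclei. Those are per distal reads of a group, so promoter and region levels are not on 1 scale. Igf2bp3, with 3 fetal-only regions, had 43.9 and 40.6 against 9.99 and 9.18 CPM at its promoter (log2 fold change 2.13, SE 0.29, edgeR adjusted p = 5.37e-08). In basal nuclei alone that promoter missed the threshold at a log2 fold change of 2.4. Dlk1 rose by 1.5 (SE 0.33, edgeR adjusted p = 0.000449) from 7.27 and 12.5 to 31.5 and 26.1 CPM, and missed the threshold in basal nuclei alone, at 0.71. Edn3, which encodes endothelin 3, rose by 2.04 on 2.42 and 3.3 CPM in the adult, and it missed the threshold without fetal replicate 1 and without adult replicate 1. Slc15a2, a peptide transporter gene, and Tnfsf18, a TNF family ligand gene, each rose by 1.62. Stk32b, a kinase gene, rose by 1.89. Prkg2, a cGMP-dependent kinase gene, rose by 1.61. Slc15a2 missed the threshold in luminal (0.91) and in basal nuclei alone (1.24), as did Tnfsf18 (0.67 and 1.91). Prkg2 missed it in basal nuclei alone, at 0 after rounding. A930009A15Rik rose by 2.23. The call on Gpr84, at 1.75 with an edgeR adjusted p of 0.0384, was lost with DESeq2, with the replicate block and without either adult replicate.

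Other promoters near fetal-only regions were less open in the fetus. Smim31, a small membrane protein gene, had 2.74 and 0.567 CPM in the fetal and 23.6 and 27.3 CPM in the adult libraries (log2 fold change -4.32, SE 0.52, edgeR adjusted p = 1.25e-09). Foxi1, which encodes a forkhead factor of ion-transporting epithelial cells, had 6.86 and 11.3 against 33.0 and 26.4 CPM (-1.61, SE 0.32). Spdef, an ETS factor of secretory and luminal cells, had 2.74 and 11.6 against 17.6 and 22.8 CPM (-1.28, SE 0.38). Its sign turned in luminal nuclei alone, to 0.17, where adult mature luminal-like nuclei are left out. Its call was lost with DESeq2 and without fetal replicate 1 or adult replicate 2. Psg18, of the pregnancy-specific glycoproteins, a family of similar genes whose reads may be shared, fell by 2.48. Smim31 and Psg18 had too few reads to be tested in luminal or in basal nuclei alone. Cebpb, a regulator of alveolar development, fell by 0.78 on an edgeR adjusted p of 0.0312, but it missed the threshold with DESeq2, in luminal or basal nuclei alone, and without fetal replicate 1 or either adult replicate. Falls of 0.66 to 1.00 were found at Spata6, Pogk, Tmem17, Mocos and Lekr1. Of these 5, all but Lekr1 missed the threshold in basal nuclei alone, Lekr1 and Spata6 in luminal nuclei alone, and Spata6 also without adult replicate 2. Among the list genes, Smad6, an inhibitor of BMP signalling, rose by 0.38 (edgeR adjusted p = 0.0263) but missed the threshold with DESeq2, in basal nuclei alone and without any one of the 4 libraries. Edar was at 61.7 and 62.7 against 44.2 and 52.3 CPM and did not pass (adjusted p = 0.166 by edgeR).

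**Figure D5:**
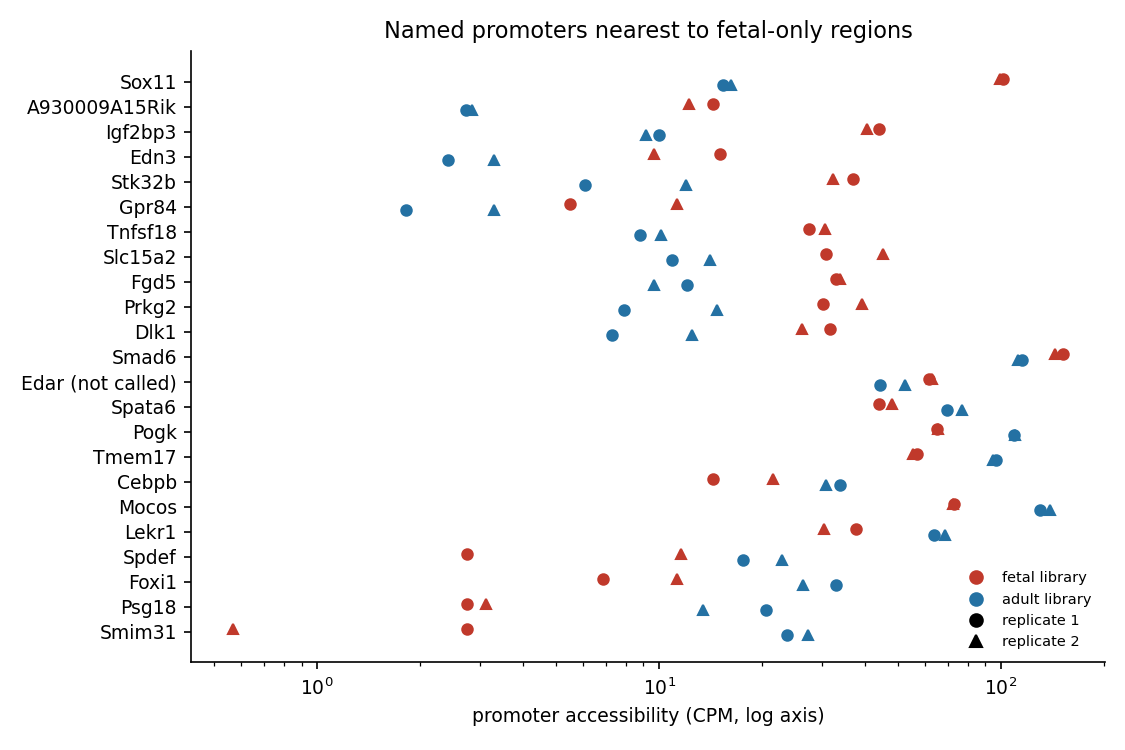
Accessibility in CPM (horizontal log axis) of the named promoters nearest to fetal-only regions, with 1 point per library, red fetal and blue adult, circles replicate 1 and triangles replicate 2. From Sox11 to Smad6 the fetal points lie to the right of the adult points, from Spata6 to Smim31 to the left, and Edar was not called.

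At the authors' deposited score of at least 0.25, 313 of the 657 (47.6%) had a link, against 35.6% of the regions that missed the fold and 14.6% of all distal regions. A link to a promoter was found in 30 (4.57%), against 7.18% of those that missed the fold and 2.21% of all distal regions. Of the 175 adult-only regions, 61.1% had a link and 13.1% a link to a promoter. There were 66 pairs of fetal-only regions linked to each other, over 113 regions. Pairs were not counted in the other sets. These scores come from the same nuclei, so a stage difference at a linked promoter is not independent of the link. The regions were also chosen for a shared stage difference, which can itself give links. Nothing is therefore read from the shares of linked regions or from the pairs. Of the 33 linked promoters, 32 were more open in the fetal libraries by edgeR at an adjusted p under 0.05 (97.0%, where 10.5% of all promoters were). That count supports nothing. They include Cldn9, with 52.1 and 49.4 CPM in fetal against 2.12 and 3.06 CPM in adult libraries, Lgr5, a receptor of R-spondins, with 124 and 106 against 42.7 and 55.8 CPM, and Sox21, with 122 and 130 against 66.3 and 58.4 CPM. The promoter of Prss33, a serine protease gene, had 12.3 and 13.6 CPM in fetal replicates 1 and 2 and no read in either adult replicate.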

How the data were processed

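Reads, barcodes, region lists, classes, chromVAR scores and co-accessibility scores are as deposited by the authors. Per the submitters' processing notes, Bowtie2, MACS2 and bedtools were used with build mm10; their settings were not given in the sources used here. The read count the authors deposited for each nucleus equalled the reads with its barcode in every listed nucleus. The deposited scores (chromVAR deviations and co-accessibility) were taken without change.

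The regions, lists and tests were chosen with earlier results of these data known. Reads of listed nuclei were counted in each region they overlapped by 1 base or more. Depths are given in the text above; CPM is per 1000000 distal reads of the group, and for the promoter test per 1000000 reads of tested promoters after TMM scaling (factors 0.984 to 1.01). A level resting on few reads is imprecise, and 3 reads correspond to 0.511 to 1.29 CPM by group.

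Promoter regions averaging 10 reads or more per library, and distal regions averaging 5 or more in class 6, were tested with edgeR 4.0.16 in R 4.3.3 (glmQLFit and glmQLFTest, Benjamini-Hochberg, 0.05), with fetal against adult as the only term. The SE is the absolute log2 fold change over the square root of F. Both tests were checked on simulated counts. Nearest genes are the nearest RefSeq protein-coding gene bodies (GRCm38.p6), since starts are listed for only part of the genes. Named regions are the 10 highest by level and examples of the highest by ratio, those nearest to listed genes and the densest loci; named promoters are the 10 largest called changes each way with a RefSeq symbol, plus those of listed genes. The printed sequences and linked promoters were picked after their values were seen. Alternatives are DESeq2 1.42.0, other scalings, filters, class subsets, a replicate block and leaving out each library. No doublet caller was run. The deposited gene score table was not used here. Counting and plots used Python 3.11.15, numpy 2.4.6, pandas 2.3.3 and matplotlib 3.10.9.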

Additional observations from a re-analysis of the deposited data

How the results depend on the processing

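The number of fetal-only regions depended on the thresholds: 1484 at a fold of 2, 212 at a fold of 5, 1515 at a minimum of 5 CPM, 187 at 20 CPM and 297 with each of classes 4, 5, 9 and 12 held to the rule alone. It was 663 by read midpoints, 650 with libraries weighted equally, 714 and 595 with 0.1 and 1 CPM added, and 568 to 797 without each library. The ratio of the fetal to the adult share in class 6 was 3.66 for regions at a fold of 5, and, chosen after seeing the data, 2.14 to 3.49 without each library. The promoters called near fetal-only regions numbered 55 (44 higher, 11 lower) in luminal and 18 (12 higher, 6 lower) in basal nuclei alone, where fewer reads are tested, and 32 (32 higher, 0 lower) for linked promoters. DESeq2 called 72, with 22 lower, beside 14.1% of all promoters. Without each library the count was 70 to 85, with 44 to 58 higher and 18 to 27 lower, beside 13.8% to 16.3% of all. With the replicate block, 109 were called, 71 higher and 38 lower, beside 23.1% of all; the correlation of the deviations of same-numbered libraries was 0.0706 across promoters. With 2 numbers this cannot settle whether they share a litter or day, which the labels do not give, and they were not treated as pairs. In class 6, 0 fetal-only regions were called under the 9 alternatives, the replicate block included, but at most 4 entered any of them except that with no filter (235). At an unadjusted p of 0.05 there were 3 of these 235, beside 2080 of all 73419. Counting any gene body within 100 kb gave 5 Wnt genes' regions in place of 2 (0.761%, against 0.606% of all distal regions). It gave 3 for BMP, TGF-beta and hedgehog in place of 5 (0.457%, against 0.467%). Also chosen after seeing the data, regions at a fold of 5 had median log2 ratios of 0.78 (class 5 to 9) and 0.63 (class 12 to 4); single fetal libraries gave 0.59 to 0.62, 0.48 to 0.49, and 0.16 to 0.26 for basal-like to luminal-like, against 0.66, 0.47 and 0.16 pooled. Of 241 alternative values of the 23 named promoters, 34 missed the threshold and 3 of called promoters turned sign, namely Spdef in luminal nuclei (0.17) and, in basal nuclei, Prkg2 (0 after rounding, on the negative side) and Smad6 (-0.02). The other 204 stayed on their side of the threshold, among them Edar, not called, which had -0.17 in basal nuclei. The cause was not tested. Values with too few reads to test are not among the 241. These include luminal and basal nuclei alone for Gpr84, Psg18 and Smim31, and basal nuclei alone for A930009A15Rik, Edn3 and Spdef. Motif words over whole regions or their central 500 bases, also at a fold of 5, were not run for want of a genome sequence here.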
